A study of Mus musculus with 41 samples.

Results

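Immune checkpoint genes were followed through mouse malignant mesothelioma, in whole tumors and in cell lines grown from such tumors. The members were 10 of the 27197 gene rows of the RNA count table, chosen by name as the ligand, receptor and enzyme genes of the checkpoint pathways, and all 10 were present. They were read in 9 tumor libraries and 6 cell line libraries, told apart by line names such as JB81. A gene read in the lines is carried by cells that grow in culture. A gene read in the tumors and at 0 counts in the lines was seen only in tissue that also holds infiltrating and stromal cells, and whether culture itself silenced it cannot be told apart from their absence. In bulk RNA, fewer cells of a type and less RNA per cell cannot be told apart.

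Checkpoint genes restrain T cells. The receptors PD-1 (Pdcd1), CTLA-4 (Ctla4), LAG-3 (Lag3), TIM-3 (Havcr2) and TIGIT (Tigit) sit mainly on T cells that have met antigen, and TIM-3 is also carried by macrophages and dendritic cells. The ligands PD-L1 (Cd274) and PD-L2 (Pdcd1lg2) bind PD-1, B7-H3 (Cd276) and VISTA (Vsir) are related surface proteins, and the enzyme IDO1 (Ido1) breaks down tryptophan, which T cells need. Interferon gamma, released by activated T cells and natural killer cells, is a known inducer of PD-L1 and IDO1, in part through IRF1.

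The tumors were induced by injecting Adeno-Cre, an adenovirus in which the CMV promoter drives Cre recombinase, into the pleural space of young adult mice on a mixed background, which drank cyclosporine A, a drug that suppresses T cells, before and for some weeks after the injection. BNC stands for Bap1-/-;Nf2-/-;Cdkn2ab-/- and NC for Nf2-/-;Cdkn2ab-/-, so every group shared the loss of Nf2 and of Cdkn2ab, the latter carried as a germline deletion of Ink4a and Ink4b with a conditional p19Arf. The CMV promoter is active in many cell types, and which cells recombined was not measured here. The lines were early outgrowths of primary tumors: JB81, JB91 and JB97 were BNC, and JB84, JB87 and JB93 were NC. The labels describe 5 BNC and 4 NC tumors with RNA data, but the column names do not show which tumor is which, so the 9 tumors formed 1 group here. The tumors are called by the tumor numbers in the column names (B1, B2, B13, B14, B19, B27, B28 and B45), and the one without a B number is called tumor 22. The genotype of a line comes from the line names in the study's own expression table, since the labels give no line names.

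Libraries held between 8158740 and 23936922 counts. Tumor B1 was the shallowest, and 10 genes took 55.6% of its counts, against 4.37% to 17.34% in the other libraries. Lines JB81 and JB91 (BNC) differed by a biological coefficient of variation of only 0.0386, and JB84 and JB93 (NC) by 0.0578, while the other pairs within a line group differed by 0.457 to 0.496. Each of these close pairs may therefore count as little more than 1 sample, and p-values between lines measure only the spread between these libraries. Across the groups, JB97 (BNC) and JB87 (NC) differed by 0.402, less than either differed from the other lines of its own group. All tumors carried 1 leading number in their column names and the lines carried 2 others. The labels do not say what this number stands for, and it is called run here only for short. Run in this sense and tissue cannot be told apart. Bap1, the targeted gene, was at 40.3, 41.4 and 36.9 CPM (counts scaled to 1000000 per library) in the BNC lines and at 57.1, 56.8 and 60.3 in the NC lines. The groups did not overlap, and the log2 difference was -0.57 ± 0.13 (SE; edgeR, adjusted p = 0.039). The counts cover the whole gene and do not separate the deleted part.

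CPM values are scaled to the library by the trimmed mean of M values (TMM). A gene was called where edgeR's quasi-likelihood test gave a Benjamini-Hochberg adjusted p under 0.01 over all tested genes and the fold change was above 2. For a gene at 0 counts in every line, a fold was computed against 3 counts in each line, worth 0.124 to 0.2315 CPM, and is a lower bound. The fitted log2 fold change of such a gene depends on the prior count and is no bound.

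Leukocytes were present in every tumor and were near absent from the lines. The pan-leukocyte gene Ptprc was between 80.2 and 219 CPM in the tumors and at no more than 1 count in any line. All 11 T cell markers were at 3 counts or fewer in every line, and 7 of them (Cd3d, Cd3e, Cd3g, Cd2, Cd5, Cd4 and Cd8a) were at 0. Their summed level ran from 7.38 CPM in tumor B28 to 274 CPM in tumor B27. The sum of 9 macrophage markers ran from 2148 to 9312 CPM in the tumors and from 3.27 to 44.7 CPM in the lines, with C1qa, C1qb and C1qc at 0 in every line. Mesothelial identity was uneven among the lines. Msln was at 0.207 and 0.415 CPM in JB81 and JB91, 224 CPM in JB97 and 844 to 2018 CPM in the NC lines. Krt18 was at 0, 0.0415 and 0.951 CPM in the BNC lines and at 55.3 to 146 CPM in the NC lines, whereas Wt1 was read in all 6 lines at 72.1 to 123 CPM.

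Proximal promoters of the members differ in whether they hold an interferon-type element. RefSeq promoter windows on GRCm38.p6, each with 250 bases before and 50 after a gene's start, were given for 8 members: Cd274, Pdcd1lg2, Pdcd1, Ctla4, Havcr2, Tigit, Vsir and Cd276. The motif GAAANNGAA, a core shared by many interferon-stimulated response elements, was searched on both strands and occurred in 8.56% of all 32851 windows. It was found in the windows of Cd274 and Ctla4. The motifs TTCNNNGAA (the gamma-activated site, in 8.3% of windows) and GGGNNTTTC (an NF-kB type site, in 4.36%) were in none of the 8 windows. Lag3 and Ido1 had no window. A match is a description of letters, and a window without one says nothing about the factor. The 250 bases before the start are shown for the 2 members with a match and for the 2 others for which the BNC and NC lines did not overlap, 5′ to 3′ on the strand of the gene. Capitals mark the match, which lies on the opposite strand and therefore reads as its reverse complement, and begins 76 bases before the start in Cd274 and 166 bases before it in Ctla4. The Ctla4 start used by RefSeq lies inside the longer gene span given below.
Cd274, chr19:29367188-29367437, plus strand: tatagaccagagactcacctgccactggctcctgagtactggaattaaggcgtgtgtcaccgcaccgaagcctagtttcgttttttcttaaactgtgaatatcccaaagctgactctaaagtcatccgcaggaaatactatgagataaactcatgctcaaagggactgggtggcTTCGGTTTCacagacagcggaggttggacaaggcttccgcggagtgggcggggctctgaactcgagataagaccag
Ctla4, chr1:60908775-60909024, plus strand: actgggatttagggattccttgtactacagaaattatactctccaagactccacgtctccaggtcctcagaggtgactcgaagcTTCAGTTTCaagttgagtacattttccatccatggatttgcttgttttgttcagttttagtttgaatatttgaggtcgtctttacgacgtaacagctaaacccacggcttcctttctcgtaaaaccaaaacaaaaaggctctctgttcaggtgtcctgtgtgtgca
Havcr2, chr11:46454681-46454930, plus strand: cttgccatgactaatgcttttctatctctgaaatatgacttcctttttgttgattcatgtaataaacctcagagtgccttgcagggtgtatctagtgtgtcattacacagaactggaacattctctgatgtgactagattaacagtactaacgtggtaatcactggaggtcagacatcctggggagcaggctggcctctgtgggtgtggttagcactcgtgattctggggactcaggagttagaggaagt
Tigit, chr16:43664185-43664434, minus strand: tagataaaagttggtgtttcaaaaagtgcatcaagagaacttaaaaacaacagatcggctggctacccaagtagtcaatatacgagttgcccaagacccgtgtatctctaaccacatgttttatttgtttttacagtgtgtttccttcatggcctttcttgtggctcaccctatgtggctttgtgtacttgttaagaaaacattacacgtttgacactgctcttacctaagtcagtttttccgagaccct

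Across the set, 9 of 10 members were called higher in tumors than in lines and none was called lower. Over all 15675 genes tested, 28.2% were called higher and 11.5% lower. The median log2 fold change of the members was 5.46, or 4.7 with the 3 genes at 0 in the lines set to their bound, against 0.376 over all tested genes. In 5 members every tumor lay above every line, which was the case for 16.4% of all tested genes. All 10 members passed the filter on low counts. Pdcd1lg2, Pdcd1, Ctla4, Ido1 and Vsir did so only through the tumors, with 0, 0, 0, 4 and 15 counts in the lines. The numbers of called members and the medians above are therefore a description. With at least 10 counts in every library, Cd276 was the 1 member that could be tested, and it was called.

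**Figure D1:**
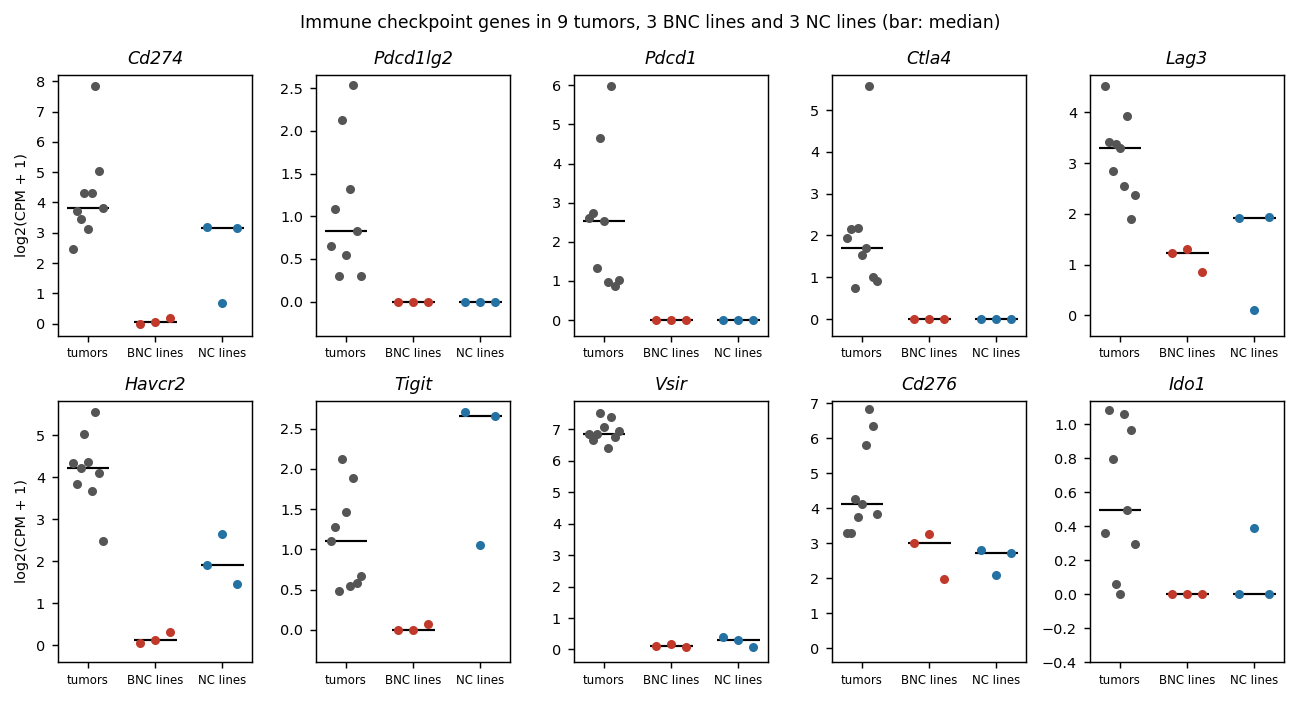
Each panel plots 1 member as log2(CPM + 1) on the y axis, with a point for each of the 9 tumors, 3 BNC lines and 3 NC lines and a bar at the group median. Pdcd1lg2, Pdcd1 and Ctla4 sit at 0 in all 6 lines, whereas Cd274, Tigit and Havcr2 are near 0 in the BNC lines and at 0.617 CPM or more in every NC line.

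Positions are those of GENCODE M21 on GRCm38 (mm10) and span the whole gene. Cd274 (ENSMUSG00000016496, chr19:29367455-29388095, plus strand), the gene of PD-L1, was read in every tumor and in the NC lines. In the tumors its lowest level was 4.57 CPM in B1, the median was 13 CPM and the highest was 227 CPM in B27. The NC lines JB84, JB87 and JB93 were at 8.12, 0.617 and 7.97 CPM, and the BNC lines JB81, JB91 and JB97 were at 0, 0.0415 and 0.15 CPM, from 0, 1 and 3 counts. B27 stood far above the next tumor, B28 at 31.9 CPM, and JB84 and JB93 lay within the range of the tumors, above B1 and B19. The fitted difference between tumors and the mean of the 2 line groups was 5.97 ± 1.18 (SE) on the log2 scale (edgeR, adjusted p = 0.00065). With all 6 lines taken as 1 group Cd274 was no longer called (3.77 on the log2 scale, adjusted p = 0.024).

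Pdcd1lg2 (ENSMUSG00000016498, chr19:29410919-29471161, plus strand), the gene of the second PD-1 ligand, was the opposite case. It was at 0 counts in all 6 lines and between 0.227 and 4.79 CPM in the tumors, with a median of 0.775 CPM. B27 and B14 were highest, at 4.79 and 3.37 CPM, and no tumor overlapped the lines. The tumor mean, 1.45 ± 1.59 CPM (SD, n = 9), was at least 9.1-fold above the floor of the lines, and the tumor median 4.87-fold (edgeR, adjusted p = 0.00037). B27 and B14 weigh on the mean. B13 and B45, at 0.227 and 0.229 CPM, lay under the 0.2315 CPM that 3 counts are worth in JB87, and B1 had 2 counts. For these tumors the lack of overlap rests on few counts. An antisense gene, A930007I19Rik, overlaps 6412 bases of Pdcd1lg2 and held 403 counts over all libraries, and the strand setting of the counting is not stated, so reads of the 2 genes cannot be told apart.

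Cd276 (ENSMUSG00000035914, chr9:58524298-58555437, minus strand), which encodes B7-H3, was the 1 member at 1 CPM or more in every line. The BNC lines were at 7.11, 8.63 and 2.95 CPM, and the NC lines were at 5.98, 3.24 and 5.57 CPM, so the 2 line groups overlapped. The tumors ran from 8.78 CPM in B2 over a median of 16.4 CPM to 113 CPM in B27, with B28 at 80.9 CPM and tumor 22 at 54.8 CPM. The other 6 tumors lay between 8.78 and 18.4 CPM, and the lowest barely cleared the highest line. Tumors were 2.71 ± 0.67 (SE) higher on the log2 scale (edgeR, adjusted p = 0.0029). The call was lost without JB97 or JB87 (adjusted p up to 0.0107) and, as for Lag3 and Ido1, with the close line pairs summed. Under scaling by library size alone, B1 was at 3.8 CPM and the groups overlapped.

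Vsir (ENSMUSG00000020101, chr10:60346851-60372684, plus strand), the gene of VISTA, a checkpoint protein abundant on myeloid cells, had the smallest p of the members in tumors against lines. It ranged from 83.9 CPM in tumor 22 to 184 CPM in B14, with a median of 115 CPM. Each line held between 1 and 5 counts, or 0.0453 to 0.315 CPM. The tumors varied by little (125 ± 32.1 CPM, SD, n = 9), and the ratio of the pooled rates in tumors and lines was 1022, with a 95% counting interval from 619 to 1826 that covers counting error only. The fitted difference was 9.86 ± 0.41 (SE) on the log2 scale (edgeR, adjusted p = 2.2e-09). Vsir lies within Cdh23 on the opposite strand, which held 480 counts over all 15 libraries, against 20939 for Vsir in the tumors alone.

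Among the receptors, Pdcd1 (ENSMUSG00000026285, chr1:94038305-94052553, minus strand) was at 0 counts in every line. It was lowest in B28, at 0.82 CPM, had a median of 4.78 CPM, and was highest in B27 and B14, at 61.9 and 24.1 CPM. No tumor overlapped the lines. The tumor mean of 11.8 ± 20.2 CPM (SD, n = 9) was at least 74-fold above the floor of the lines, and the tumor median 30.1-fold (edgeR, adjusted p = 0.00081).

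Ctla4 (ENSMUSG00000026011, chr1:60887000-60915832, plus strand) was likewise at 0 counts in all 6 lines. In 8 tumors it lay between 0.681 and 3.5 CPM, and tumor B27 stood apart at 46.6 CPM. The tumor median, 2.23 CPM, was 14-fold above the floor of the lines, and the mean, 7.01 ± 14.9 CPM (SD, n = 9), at least 44-fold (edgeR, adjusted p = 0.00091). The pseudogene Rpl18-ps1 lies inside Ctla4 and held 63 counts over all libraries.

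Lag3 (ENSMUSG00000030124, chr6:124904361-124911705, minus strand) was read in tumors and lines. The tumors ran from 2.73 CPM in B28 over a median of 8.78 CPM to 22 CPM in B1, a library in which TMM and library size scaling differ most and which was at 9.44 CPM by library size alone. The BNC lines were at 1.36, 1.49 and 0.801 CPM, and the NC lines were at 2.77, 0.0772 and 2.81 CPM. JB84 and JB93 lay just above tumor B28, so the groups overlapped. Tumors were 2.57 ± 0.62 (SE) higher on the log2 scale (edgeR, adjusted p = 0.0027). Lag3 begins 1976 bases past the end of Ptms, which lies upstream on the same strand and held 92918 counts over all libraries.

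Havcr2 (ENSMUSG00000020399, chr11:46454935-46481255, plus strand) was read at 4.62 CPM in B45, 17.7 CPM at the median and 45.7 CPM in B27. In JB84, JB87 and JB93 it was at 2.77, 5.25 and 1.77 CPM, against 0.0413, 0.0829 and 0.25 CPM in JB81, JB91 and JB97. Only JB87 reached the tumor range, above B45. The fitted difference between tumors and lines was 4.96 ± 0.57 (SE) on the log2 scale (edgeR, adjusted p = 7.26e-06).

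Tigit (ENSMUSG00000071552, chr16:43648867-43664146, minus strand) was the member that was not called. The tumors ran from 0.397 CPM in B13 over 1.14 CPM to 3.37 CPM in B14. The NC lines JB84, JB87 and JB93 were at 5.54, 1.08 and 5.3 CPM, from 88, 14 and 117 counts, whereas the BNC lines held 0, 0 and 1 counts. JB84 and JB93 therefore lay above every tumor, while the BNC lines lay below every tumor. The fitted log2 difference against the mean of the line groups was 2.23 ± 0.73 (SE; edgeR, adjusted p = 0.015), and with the 6 lines as 1 group it turned to -0.52 (adjusted p = 0.69). By group means the tumors were at 1.37 ± 1.07 CPM (SD, n = 9) and the lines at 1.99 ± 2.68 CPM (SD, n = 6), so no direction against the lines as a whole is given.

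Ido1 (ENSMUSG00000031551, chr8:24584136-24597009, minus strand) was close to the detection floor throughout. No tumor exceeded 22 counts, the median was 0.411 CPM and the highest level was 1.12 CPM in B2, while B19 was at 0 counts. In the lines only JB87 had any, with 4 counts. The groups overlapped, and although the gene was called (4.44 ± 1.23 SE on the log2 scale; edgeR, adjusted p = 0.0075), leaving out 1 library ended the call in 10 of 15 cases. The pooled ratio of 91 counts in the tumors to 4 in the lines was 16.7, with a counting interval from 6.28 to 62.4.

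**Figure D2:**
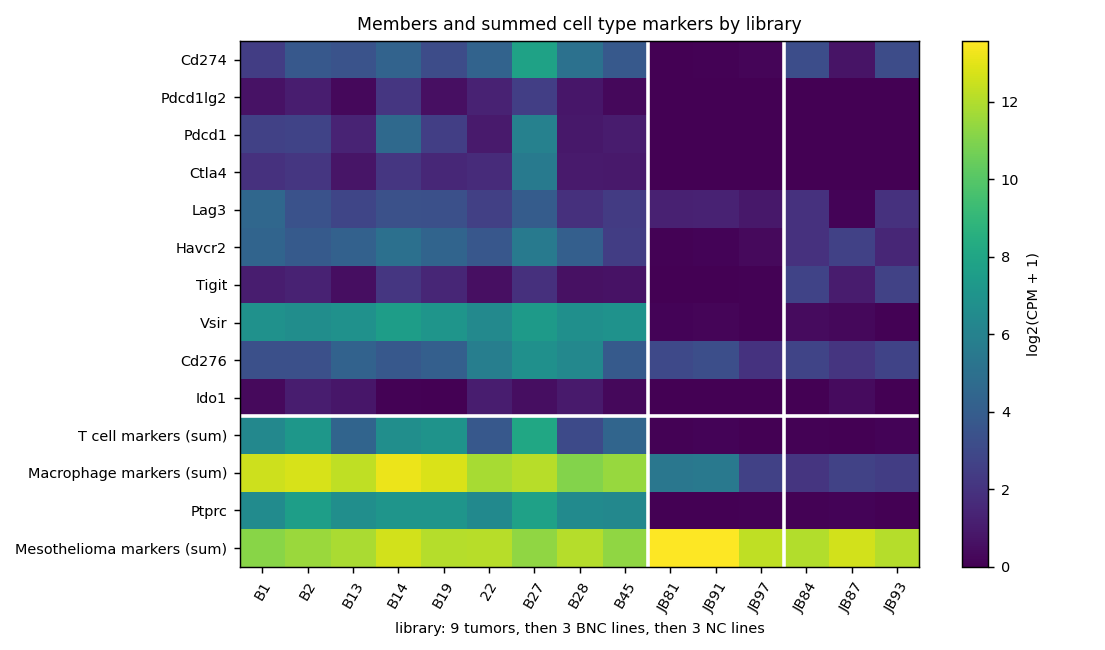
Rows are the 10 members and below them the summed markers of T cells and macrophages, Ptprc and the summed markers of mesothelioma cells, columns are the 15 libraries, and the color gives log2(CPM + 1). Vsir, the macrophage markers and Ptprc are high in all 9 tumors and low in the lines, whereas Cd274, Tigit and Havcr2 are visible in the NC lines, where T cell markers and Ptprc are at the bottom of the scale.

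Levels of different genes were set side by side only as CPM per kilobase of exon. In the tumors Vsir had the highest median, 22.9 CPM per kilobase, and lay above the next gene, Havcr2 at 6.49, in 9 of 9 tumors. Below Havcr2 came Cd276 at 4.5, Lag3 at 4.16 and Cd274 at 3.6 CPM per kilobase. From Havcr2 to Pdcd1, neighbors kept their order in only 4 to 6 of 9 tumors and did not differ beyond their spread. Pdcd1 stood at 2.48, Tigit at 1.24, Ctla4 at 0.958, Pdcd1lg2 at 0.395 and Ido1 at 0.225 CPM per kilobase. Pdcd1lg2 and Ido1 kept their order in 5 of 9 tumors. In the NC lines the order was another one, with Tigit at a median of 5.76 CPM per kilobase above Cd274 at 2.2, Cd276 at 1.52, Lag3 at 1.31 and Havcr2 at 1.02. Each of these medians is the value of JB84 or JB93, a close pair, and JB87 had yet another order, with Havcr2 at 1.93, Tigit at 1.18, Cd276 at 0.886, Cd274 at 0.17 and Lag3 at 0.0366 CPM per kilobase. In the BNC lines Cd276, at 1.94, and Lag3, at 0.647 CPM per kilobase, were the 2 highest.

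The BNC and NC lines were compared to see which members differ with Bap1 in cells grown without infiltrate. For Cd274, Tigit and Havcr2 every NC line lay above every BNC line, but none of the 3 passed the threshold. The log2 differences were -6.42 ± 1.36 for Cd274 (SE; edgeR, adjusted p = 0.035), -7.58 ± 1.15 for Tigit (SE; adjusted p = 0.017) and -4.7 ± 0.77 for Havcr2 (SE; adjusted p = 0.02). Of 12376 genes tested, 1.1% were called, and 8.45% were lower in BNC lines at an adjusted p under 0.05. Non-overlap with NC above BNC held for 19.9% of all tested genes. Cd274, Tigit and Havcr2 passed the filter on low counts only through the NC lines, so their number is not read against these shares. Lag3 (-0.65 ± 0.98, SE; adjusted p = 0.65) and Cd276 (0.32 ± 0.48, SE; adjusted p = 0.65) overlapped between the groups. The other 5 members were not tested, since their counts were too low in the lines.

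Counts give the size of these differences without a prior. Cd274 had 313 counts in the NC and 4 in the BNC lines, a ratio of pooled rates of 105 (95% counting interval 40.6 to 387). For Tigit the counts were 219 and 1, and the ratio was 294 (52.1 to 11648), and for Havcr2 they were 151 and 8, with a ratio of 25.3 (12.5 to 59.7). These intervals cover counting error only, not the spread between lines. JB97 held 3 of the 4 BNC counts of Cd274, and JB84 and JB93 held 305 of the 313 NC counts. Without JB97 the ratio for Cd274 was 297 (52.9 to 11762) and that for Havcr2 47.7 (16 to 234), and Tigit had no count left in the BNC lines. JB87 alone against the BNC lines gave 10.5 (2.82 to 47.8) for Cd274, 73.8 (11.2 to 3120) for Tigit and 44.8 (21.5 to 108) for Havcr2.

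The close pairs are split over the 2 runs, so the second run largely repeats lines of the first. In the first run, JB81 (BNC) lay below JB84 and JB87 (NC) for all 3 genes, and in the second JB91 and JB97 lay below JB93. With the close pairs summed to 1 library each, no gene of the whole comparison was called, and the adjusted p was 0.34 for Cd274, 0.31 for Tigit and 0.31 for Havcr2. Without JB87, in contrast, all 3 were called (edgeR, adjusted p = 0.0034 for Cd274, 0.0019 for Tigit and 0.0079 for Havcr2). DESeq2 also called all 3, with adjusted p-values of 1.2e-05, 1.6e-06 and 2.1e-06. None of the 8 mesothelioma cell markers was called. Krt18 stood at -8.12 ± 1.29 (SE; edgeR, adjusted p = 0.019) and Krt8 at -6.74 ± 1.63 (SE; adjusted p = 0.046), Msln at -4.47 and Krt19 at -3.41 (edgeR, adjusted p = 0.22 for both), and Pdpn at -2.4 (adjusted p = 0.39), with every NC line above every BNC line. Vim was the reverse (2.06 ± 0.67, SE; edgeR, adjusted p = 0.088), and Wt1 (0.3, adjusted p = 0.43) and Upk3b (-1.71, adjusted p = 0.46) overlapped. Among the NC lines Krt8 was highest in JB87, at 365 CPM against 197 and 208 CPM in the others, whereas Cd274 and Tigit were lowest there. Krt18, Wt1, Upk3b, Pdpn and Vim were also highest in JB87. Msln and Krt19 were lowest in JB87, as were Cd274 and Tigit. Msln was at 844 CPM there against 1915 and 2018 CPM, and Krt19 at 261 CPM against 289 and 313 CPM. The sum of 3 endothelial markers also followed the groups, at 48.5 to 57.2 CPM in NC and 0.29 to 7.31 CPM in BNC lines. It was nearly all Kdr in the NC lines and in JB97, but not in JB81 and JB91, and 1 of the 3 stayed at 3 counts or fewer in every line. The sum of 4 natural killer cell markers (1.39 to 2.04 against 0.537 to 1.08 CPM, with Ncr1 and Klra8 at 0) was low but higher in every NC line. It was Eomes alone in the NC lines and nearly so in the BNC lines, so it is the level of 1 gene and no sign of that cell type. The B cell sum was at 1.13 CPM in JB84, 0.86 CPM in JB93, 0.0772 CPM in JB87 and at most 0.166 CPM in the BNC lines. The sum of 4 dendritic cell markers overlapped (15.4 to 28.7 against 14.8 to 19.1 CPM) and was nearly all Zbtb46, at 14.8 to 28.6 CPM in the lines. The macrophage sum was at 3.27 to 5.33 CPM in NC and 5.26 to 44.7 CPM in BNC lines, where its higher values were mostly Lyz2, at up to 38.8 CPM. The part of these markers in the result was not tested.

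**Figure D3:**
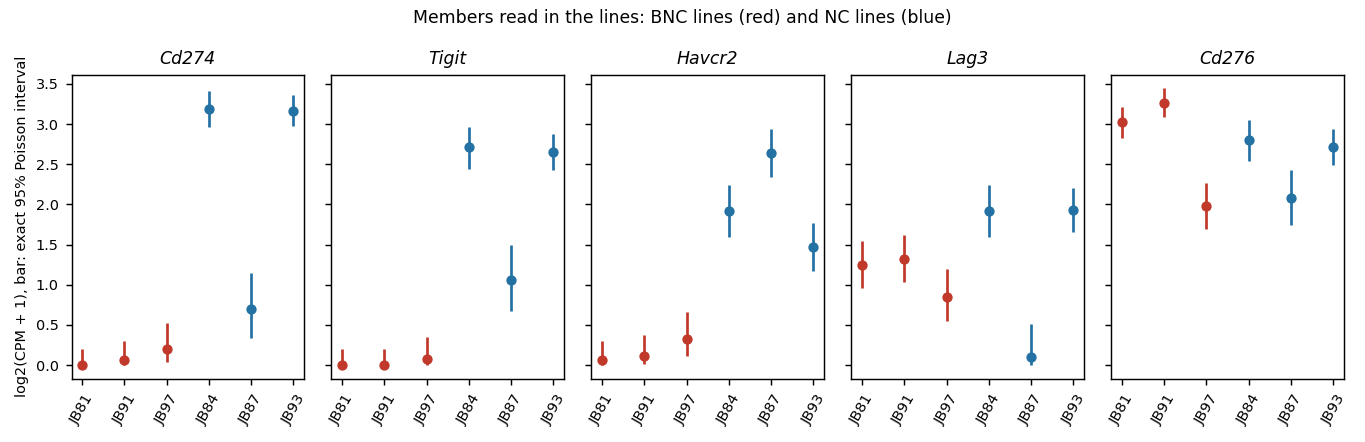
Points give log2(CPM + 1) of the 5 members tested between the lines, with BNC lines (JB81, JB91, JB97) in red and NC lines (JB84, JB87, JB93) in blue, and bars are exact 95% Poisson intervals of the count. For Cd274, Tigit and Havcr2 every blue point lies above every red point, with JB87 the lowest of the NC lines for Cd274 and Tigit and the highest for Havcr2.

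Interferon gamma genes, a list of 11 from ligand to targets, were read beside the members. In tumors against lines 9 of the 11 were called higher, against 28.2% of all tested genes. Among them were the ligand Ifng, the receptor chains Ifngr1 and Ifngr2, the factor Irf1 and the feedback inhibitor Socs1. The chemokines Cxcl9 and Cxcl10 and Ciita, the activator of MHC class II, were also among them. The median over the list was 2 on the log2 scale, or 1.8 with genes at 0 in the lines at their bound. Over all tested genes it was 0.376. Ifng, Cxcl9 and Ciita passed the filter on low counts only through the tumors, so this number and median are a description. Ifng itself was sparse, at 0 to 48 counts in the tumors with its maximum of 2.19 CPM in B27, and at 0 in all lines. Cxcl9 was at 2.74 to 99 CPM in the tumors and at 0 counts in the lines, and Ciita at 4.92 to 17.8 CPM in the tumors and at no more than 1 count in a line. The call of Irf1 (2 ± 0.49, SE; edgeR, adjusted p = 0.0027) was lost in 4 of 15 comparisons that left out 1 library. Neither kinase was called: Jak1 stood at -0.45 ± 0.16 (SE; edgeR, adjusted p = 0.02) and Jak2 at 0.48 ± 0.35 (SE; adjusted p = 0.26).

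Between the line groups none of the 8 tested interferon genes was called by edgeR, and none had an adjusted p under 0.05. At an unadjusted p under 0.05 stood 5 of them, against 35.6% of all tested genes, and DESeq2 called 2, with Cxcl10 among them (adjusted p = 0.0011), against 14.9% of all genes. The levels per line are given because they follow Cd274 in part. Cxcl10 was at 8.06, 0.617 and 9.23 CPM in the NC lines and at 0.0413, 0.0829 and 0.601 CPM in the BNC lines (log2 difference -4.68 ± 1.34, SE; edgeR, adjusted p = 0.065). JB84 and JB93 were high for Cxcl10 and Cd274 alike, while JB87 lay below them for both. For Cxcl10, JB87 (8 counts) was level with JB97 (BNC, 12 counts) within counting error, and for Cd274 they held 8 and 3 counts. Irf1 did not share this order: it was highest in JB87, at 44.1 CPM, with JB84 and JB93 at 32.5 and 31.4 CPM and the BNC lines at 12.3 to 29.2 CPM.

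The other partners of the checkpoint pathways were 45 genes for co-inhibitory and co-stimulatory ligands and receptors and for tryptophan and adenosine metabolism. Of 40 tested, 30 were called higher in tumors and 1 lower, with a median log2 fold change of 5.43 (5.12 with genes at 0 in the lines at their bound). Over all tested genes these shares were 28.2% and 11.5%, and the median was 0.376. Partners at 0 counts in the lines passed the filter on low counts only through the tumors, so these numbers are a description. The smallest p-values belonged to Sirpa, the receptor for the CD47 signal on myeloid cells (3.72 ± 0.23, SE; edgeR, adjusted p = 3e-08), and Cd86, a CTLA-4 and CD28 ligand, which was at 14.9 to 41.7 CPM in the tumors and at 0 counts in the lines (adjusted p = 3.9e-08). They were followed by Selplg, Kmo, a kynurenine pathway enzyme, and Nt5e, the gene of the adenosine-producing enzyme CD73 (adjusted p = 3.1e-07, 5e-07 and 5.3e-07). Siglecg, the gene of a sialic acid-binding receptor, was the 1 called lower, at 1.43 to 12.9 CPM in the tumors and 41.6 to 76.8 CPM in the lines (-3.38 ± 0.48, SE; adjusted p = 4.8e-05). Nectin3 (-0.63, adjusted p = 0.083) and Cd24a (-1.07, adjusted p = 0.14) were not called.

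Ligands of TIM-3 and TIGIT were read in the same lines as the receptors. Pvr, the gene of the main TIGIT ligand, was at 37.1 to 75.7 CPM in the NC and 17.2 to 36.8 CPM in the BNC lines (-1.38, edgeR, adjusted p = 0.068). It was named for that role and not by its p-value. Of the nectin genes on the partner list, Nectin2 was at 99.2 to 116 CPM in the NC and 72.8 to 88.3 CPM in the BNC lines (-0.41, edgeR, adjusted p = 0.1). Nectin3 went the other way, with every BNC line above every NC line. Lgals9, whose product galectin-9 is a reported TIM-3 ligand, was at 332, 154 and 364 CPM in JB84, JB87 and JB93 and at 21.8, 20.2 and 39 CPM in JB81, JB91 and JB97 (-3.42 ± 0.44, SE; edgeR, adjusted p = 0.012), with the tumors between them at 46.1 to 102 CPM. Of the partners tested between lines, 1 of 17 was called in each direction, against 55 higher and 81 lower of all 12376 genes. Sirpa was higher in BNC lines, at 39.8, 41.3 and 33.7 CPM against 12.1, 13.9 and 11.7 CPM (1.59 ± 0.17, SE; adjusted p = 0.0091). Tnfsf4, the gene of OX40 ligand, was lower, with 1 count in the 3 BNC lines together and 3.01 to 6.92 CPM in the NC lines (-7.95 ± 0.89, SE; adjusted p = 0.0097). Both calls were lost in 4 of 6 comparisons that left out 1 line. Tnfrsf14, the gene of HVEM, followed with -6.32 ± 0.91 (SE; adjusted p = 0.016), while Nectin3 (0.19, adjusted p = 0.38) and Cd24a (0.24, adjusted p = 0.49) were not called.

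Over the 9 tumors the members were set against 3 scores, each the mean log2(CPM + 1) of 6 markers, in 30 relations with exact permutation tests, two-sided and adjusted together by Benjamini-Hochberg. The interferon gamma score (6 genes of the list, with Irf1, Socs1, Cxcl9, Cxcl10 and Ciita among them) ran from 3.51 in B45 to 6.05 in B27. It rose with Havcr2 (r = 0.928, exact adjusted p = 0.0086, rho = 0.833, adjusted p = 0.062), Pdcd1 (r = 0.914, exact adjusted p = 0.0086, rho = 0.8, adjusted p = 0.069) and Tigit (r = 0.889, exact adjusted p = 0.0086, rho = 0.883, adjusted p = 0.046). Pdcd1lg2 (r = 0.84, exact adjusted p = 0.021, rho = 0.7, adjusted p = 0.13) and Ctla4 (r = 0.778, exact adjusted p = 0.021, rho = 0.85, adjusted p = 0.061) followed. The unadjusted exact p-values of these 5 Pearson correlations were 0.00078, 0.0003, 0.00086, 0.0049 and 0.0054, and those of the rank correlations were 0.0083, 0.014, 0.0031, 0.043 and 0.0061. Without B27 and B45, the tumors farthest from the median score, r was 0.784, 0.943, 0.978, 0.701 and 0.707. Without B14 and B27, the 2 tumors that stood above the rest in this score, none of the 5 kept an adjusted p under 0.05 (r = 0.835, 0.735, 0.71, 0.415 and 0.692). Without B27 alone, Pdcd1 and Tigit did (exact adjusted p = 0.0398 for both), and without B1 and B27 none of the 5 did (0.0516 at the lowest). B27 also had the highest T cell markers and B14 the highest macrophage markers, and their part in these relations was not tested.

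Cd274 stood outside that group. Its r with the interferon gamma score was 0.514 (rho = 0.183, exact adjusted p = 0.26 and 0.72) and fell to -0.014 without the 2 farthest tumors. Vsir (r = 0.673, exact adjusted p = 0.12), Lag3 (r = 0.605, exact adjusted p = 0.19), Cd276 (r = 0.221, exact adjusted p = 0.65) and Ido1 (r = -0.298, exact adjusted p = 0.56) did not pass. With Irf1 alone in place of the score, Cd274 reached r = 0.927 (exact adjusted p = 0.014), and r was 0.672 without the 2 farthest tumors. Its rank correlation with Irf1 did not pass (rho = 0.833, exact adjusted p = 0.108). Of the 5 members above, Pdcd1lg2 passed with Irf1 alone by Pearson r (r = 0.876, exact adjusted p = 0.0144) but not by rank (rho = 0.717, exact adjusted p = 0.189). Ctla4 (r = 0.795), Havcr2 (0.683), Pdcd1 (0.678) and Tigit (0.463) did not pass (exact adjusted p from 0.108 to 0.317). With all 9 tumors no relation with the macrophage score passed, and the smallest adjusted p was that of Cd276 (r = -0.728, rho = -0.7, exact adjusted p = 0.098 and 0.13). This depended on which tumors were kept. Without B27 Pdcd1 (r = 0.931, exact adjusted p = 0.0179) and Tigit (r = 0.884, exact adjusted p = 0.0398) passed. Without B1 and B27 Pdcd1, Lag3 and Tigit did (r = 0.931, 0.914 and 0.899, exact adjusted p = 0.0476, 0.0491 and 0.0491). Without B14 and B27 none passed, although over these 7 tumors r was still 0.915, 0.856 and 0.806 for the same 3 genes (exact adjusted p = 0.0905, 0.0905 and 0.166).

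**Figure D4:**
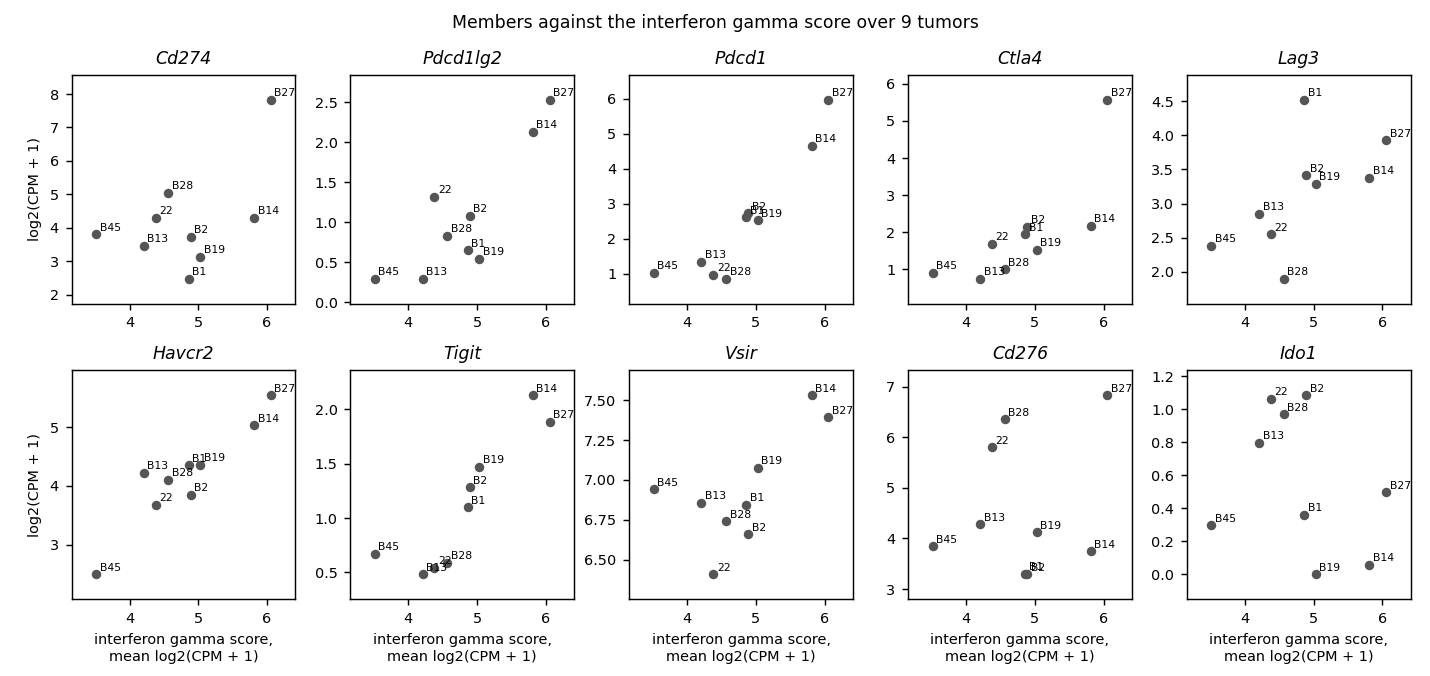
Each point is a tumor, named by its label, with the interferon gamma score (mean log2(CPM + 1) of 6 genes) on the x axis and a member's log2(CPM + 1) on the y axis. B14 and B27 lie at the right in every panel, and Cd274 and Cd276 are high in B27 but not in B14.

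The T cell score (Cd3d, Cd3e, Cd3g, Cd2, Cd5 and Cd6) fell into separate clusters, with 5 tumors between 3.04 and 4.57 and 4 between 0.633 and 1.53. The gap between them, 1.51, was 0.384 of the whole range. No pooled correlation is given for it, and neither cluster holds enough tumors for one of its own. The largest gap of the interferon gamma score, below B14 and B27, was 0.308 of its range. No fixed cutoff told the 2 scores apart, so the pooled correlations of the interferon gamma score carry a similar limit. B27 had the highest T cell score, the highest Ptprc and the highest level of 6 members: Cd274, Pdcd1lg2, Pdcd1, Ctla4, Havcr2 and Cd276. Its T cell markers did not move as 1: Cd3g was at 111 CPM, Cd3e at 46.1 CPM and Cd3d at 41.8 CPM, while Cd8a, at 1.51 CPM, was second lowest among the tumors. Cd80, a CTLA-4 ligand singled out after its values were seen and read in all 6 lines at 2.7 to 37.2 CPM, stood at 73.2 CPM in B27 and at no more than 3.78 CPM in any other tumor, and B27 also had the lowest Krt8, at 12.4 CPM, and the highest sum of 3 endothelial markers, at 543 CPM. B28 had the lowest T cell score, Pdcd1 and Lag3, and its Cd274 and Cd276 were second among the tumors.

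Genes with the pattern most like each member over the 9 tumors, by Pearson r of log2(CPM + 1), were Nos2, Tnfaip3 and Gad1-ps for Cd274 (r = 0.99, 0.969 and 0.96) and Nfkbie, Selplg and Atp6v0d1 for Pdcd1 (r = 0.986, 0.985 and 0.977). For Ctla4 they were Isy1, Tgm1 and Tpd52, for Pdcd1lg2 Hmces, Itm2c and Gpr84, for Havcr2 Runx3, Trp53i13 and Rhoc, for Tigit Ctsa, Pqbp1 and Psap, and for Vsir Lmf1, Zbtb7b and 1600014C10Rik. For Lag3 they were Stx18, Puf60 and Selenom, for Cd276 Gm2115, Sike1 and Tmprss11b, and for Ido1 5730596B20Rik, Cfap69 and Mdm1. These are the highest of 15675 tested genes over only 9 tumors, so a high r arises by selection alone, and no test was made. Without B27, Nfkbie and Selplg were still the nearest to Pdcd1 (r = 0.972 and 0.969) and Stx18 to Lag3 (r = 0.988), whereas none of the 3 genes stayed for Cd274, Ctla4, Havcr2, Vsir or Cd276. The 8 tumors left are among those that selected the genes, so this is a description and no independent check.

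DNA copy number was measured in 14 tumors, 10 BNC and 4 NC by the labels, as log2 ratios to normal DNA in 20-kb bins, again with columns that do not show the genotype. Tumors B20 and B21 carry the same animal number. With the bins within 100 kb of each gene, the median over tumors was between -0.065 for Lag3 and 0.024 for Cd274. Single bins of chromosome 1 varied with an SD of 0.125 to 0.207 within a tumor. Lag3 was at -0.111 or lower in 4 of the 14 tumors, down to -0.168 in B26, and Ido1 at -0.105 and -0.157 in 2, B23 and B12, while the medians of their chromosomes in these tumors lay between -0.011 and 0.005. The highest ratios were those of the locus of Cd274 and Pdcd1lg2 on chromosome 19 in tumor B28, at 0.289 and 0.307, against 0.104 or less for Cd274 in the other 13 tumors. The median of all chromosome 19 bins in B28 was 0.305, and that in B31 was 0.175, so in B28 the ratio around the locus was close to that of the whole chromosome. B28 is also the label of an RNA column, with Cd274 at 31.9 CPM, but whether both came from 1 tumor is not stated, and 5 shared labels are too few for a correlation.

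**Figure D5:**
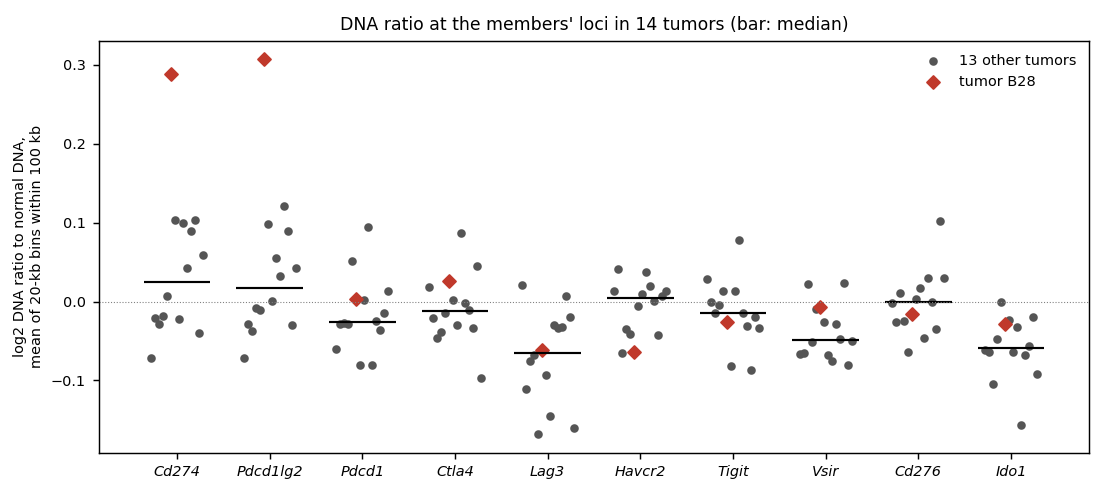
Points are the 14 tumors with DNA data, the y axis gives the mean log2 ratio to normal DNA of the 20-kb bins within 100 kb of each member, bars are medians, and the red diamond is tumor B28. B28 is at 0.289 for Cd274 and 0.307 for Pdcd1lg2, and no other value in the plot passes 0.121.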

How the data were processed

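RNA was sequenced as 65-base single-end reads from poly(A)-enriched libraries. Per the labels and the study's methods, the authors aligned the reads to mm10 with TopHat2 2.0.12, kept primary alignments above a mapping quality cutoff, and used HTSeq to count them per gene. The deposited values are raw counts per gene in 15 libraries; 26796 of 27197 Ensembl identifiers matched a GENCODE M21 symbol. The strand setting is not given in the sources used here.

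The DNA table holds the authors' log2 ratios to normal DNA in 20-kb bins, aligned with BWA per the labels; 9440 empty values were left out. BWA is listed there as version 7.10.

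Group differences in these counts were tested with edgeR 4.0.16 under R 4.3.3 (filterByExpr with a minimum count of 10, TMM, glmQLFit and glmQLFTest) and, as an alternative, DESeq2 1.42.0. Tumors were set against the mean of the BNC and NC groups, and BNC against NC lines. Scores and exact permutation tests used log2(CPM + 1) in Python 3.11.15 with scipy 1.17.1, with 362880 permutations of 9 tumors. Ratios of pooled counts carry 95% intervals. The scripts were tested on simulated data. The members and the lists were chosen with earlier results of these data known. The genes named were the members, Bap1, genes of the interferon gamma list, the partner genes with the smallest p-values (up to 5 called, otherwise 3, in each direction) and the 3 genes most like each member. The partner genes Cd80, Pvr and Nectin2 were named outside this rule.

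The lines' replicate numbers do not pair them: the correlations of their deviations were 0.128, -0.086 and 0.1. Alternatives were other scalings, filters, thresholds and tools, summed line pairs, a run covariate, a replicate block and leaving out each library. The labels name no separate cultures for the lines. Results of 2 listed genes are not reported here.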

Additional observations from a re-analysis of the deposited data

Results flagged for a closer look

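Among the 9 tumors, tumor B27 stood apart from the others in 3 of the 10 members, by the gap of the highest value to the next relative to the range of the group. For Cd274 it was at 227 CPM and the next tumor, B28, at 31.9 CPM. For Pdcd1 it was at 61.9 CPM and the next, B14, at 24.1 CPM. For Ctla4 it was at 46.6 CPM and the next, B14, at 3.5 CPM. Both ends of each member were examined, 20 in all, and chance gives such a gap in about 1 group in 20 if values are normally distributed. The gaps were taken on CPM, which is skewed, and not on the log2 scale. The rate may therefore not hold here, and whether the same 3 members stand out on the log2 scale was not tested. The 3 values come from 1 library and are not independent of each other. The same library had the highest T cell markers, 274 CPM in sum, and the highest Ptprc, 219 CPM, and their part in these values was not tested. That sum was carried by Cd3g (111 CPM), Cd3e (46.1 CPM), Cd3d (41.8 CPM) and Cd247 (27.6 CPM), while Cd8a was at 1.51 CPM in B27 against 24 CPM in B14, Cd8b1 at 1.64 CPM against 15 CPM in B19, and Cd2 at 9.54 CPM against 15.1 CPM in B2. Without B1 and B27, all 3 genes were still called higher in tumors than in lines.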

How the results depend on the processing

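Of 219 fold changes of members recomputed for tumors against lines, 198 kept their direction and side of the threshold, 18 lost the call, 2 gained it and 1 reversed: Tigit, at -0.52 with the lines as 1 group. Over all genes, 1756 were higher and 1040 lower in tumors with at least 10 counts in every library, 3483 were lower at an adjusted p under 0.05 without a fold threshold, and leaving out 1 library gave 3643 to 4493 higher and 1623 to 1995 lower, against 4421 and 1799. A run term could not be fitted, since run and tissue coincide.

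Between the lines, 55 genes were higher and 81 lower in BNC. DESeq2 gave 728 and 1118, an adjusted p under 0.05 gave 715 and 1046, all 15 libraries in the fit gave 110 and 306, and at least 10 counts in every line gave 27 higher. Summed line pairs gave 0 and 0 (1508 genes at an unadjusted p under 0.05), and the run number gave 0 and 1. Leaving out 1 line gave 0 to 1296 higher and 0 to 1278 lower, with 424 and 560 without JB97 and the maxima without JB87. The replicate block gave 0 and 0 (2146 genes at an unadjusted p under 0.05), with adjusted p-values of 0.267 for Cd274, 0.155 for Tigit and 0.131 for Havcr2. Under the replicate block Lag3 turned to 0.93, Jak1 to -0.02 and Socs1 to 0.23. Jak1 was -0.10 by library size alone and -0.01 to 0.13 when 1 line was left out, Socs1 -0.59 to 0.18 and Cd24a -0.03 to 0.38. The causes of these changes were not tested.

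At an adjusted p under 0.05 there were 5 correlations with the interferon gamma score and 0 with the macrophage score. Another pseudocount or scaling by library size kept the same 5. Relations with the T cell score were adjusted in the same family but are not counted here or below, since that score falls into separate clusters. With 1 marker gene per score there were 2 over these 2 scores (Cd274 and Pdcd1lg2, with Irf1). Without B27 there were 4, Pdcd1 and Tigit with either score. Without B1 and B27 there were 3, all with the macrophage score (Pdcd1, Lag3 and Tigit), and without B14 and B27 there were 0. The alternatives that leave out named tumors were chosen after seeing the data. Depth limits the members near the floor: 3 counts were worth up to 0.856 CPM in B1, above its Pdcd1lg2 and Ido1.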
